A study of Drosophila melanogaster with 4 samples.

Results

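The subunits of the proteasome were followed in whole adult female Drosophila melanogaster after juvenile hormone III (JH III), an insect growth and reproduction hormone, was applied to the body surface. Members were all probe sets whose platform annotation gave 1 gene symbol beginning with Prosalpha, Prosbeta, Rpn or Rpt and a digit. These were 41 of 13966 probe sets, and with the brightest probe set per gene they stood for 39 of 10843 named genes. Of the 39, 12 encode the core particle (6 alpha and 6 beta subunits), 14 the regulatory particle (10 Rpn and 4 Rpt subunits), and 13 are variant copies marked by a T or R after the number. The JH III females received 0.1 µl of acetone with JH III at 187 mM, and the acetone females the same volume of solvent alone. All flies were of the y,w strain, a laboratory stock with the yellow and white mutations, carried no transgene named in the labels, had been kept without yeast for the 5 days since they emerged as adults, were chilled for the treatment and were frozen 12 hours after it. Each treatment had 2 pools of 30 females, with 1 Affymetrix DrosGenome1 array per pool, so the precision of every value is limited by 2 arrays per group. The labels ask whether the hormone lowers antimicrobial peptides, and do not speak of the proteasome.

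The proteasome is the barrel-shaped protease that degrades proteins tagged with ubiquitin. Its core particle is a stack of alpha rings, which form the gate, around beta rings, whose Prosbeta1, Prosbeta2 and Prosbeta5 subunits carry the cutting sites. The regulatory particle caps the core. Its base holds the Rpt ATPases, which unfold the substrate, and the scaffold and receptor subunits Rpn1, Rpn2 and Rpn13, and its lid holds the ubiquitin-removing enzyme Rpn11 and further Rpn subunits. The subunits are assembled in fixed proportions, and in animals and yeast their genes are known to be regulated jointly. Many T and R copies are known from the Drosophila testis. Prosbeta1, Rpn9, Rpn10, Rpt1, Rpt6, Prosbeta5R2 and Rpt6R were not analysed here, and Prosalpha1 shares its probe set with Prosalpha1R and is no member.

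The arrays were not alike. JH III replicate 1 correlated with the others at r = 0.728 to 0.737 over the log2 values of 10474 probe sets, and the others among themselves at 0.835 to 0.863. After the authors' scaling, the geometric mean of 9 hybridisation controls, bacterial transcripts added to the samples, was 54170 and 22915 in the JH III arrays, against 7794 and 20718 in the acetone arrays. For GAPDH, a control for intact RNA, the 3' signal divided by the 5' signal was 2.32 and 5.75 with JH III, against 15.5 and 10.2 with acetone. That of eIF-4a was 18.3 and 18.9, against 74.95 and 46.8. For actin it was 3.40 and 16.7 with JH III, against 35.6 and 14.2 with acetone, so that the treatments overlapped. A control level was set for each array as the 95th percentile of 23 control probe sets for transcripts that were not added. It stood at 369 and 240 for JH III, against 139 and 295 for acetone. The 3 yolk protein transcripts of adult females were above control level in all 4 arrays, with a summed signal of 53862 and 96425 with JH III and 97230 and 77860 with acetone. Of 11 accessory gland genes, which mark males, 1 and 1 were above that level in the JH III arrays, against 2 and 0 in the acetone arrays. The summed signal of 13 ovary germline genes was 9026 and 10811 with JH III and 9094 and 8169 with acetone, and that of 8 muscle genes 18414 and 30573 with JH III and 45928 and 25793 with acetone. The part of these differences in the results was not tested. In whole-body RNA, fewer cells of a type and less RNA per cell cannot be told apart.

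No subunit passed the test between JH III and acetone females. Of the 39 members 33 were bright enough to be tested, all 26 of the core and regulatory particles and 7 of the 13 variants. At a limma adjusted p under 0.05, 0 of the 33 were called, where 0.162% of all 10474 probe sets were, and the lowest adjusted p of a member was 0.674. Before adjustment, 2 members had a limma p under 0.05, Rpn5 lower and Prosbeta2R2 higher with JH III, beside 7.29% of all probe sets (3.54% higher and 3.75% lower). Prosbeta2R2 passed the filter on mean signal through its JH III arrays alone, with a mean of 612, against 103 with acetone. Prosalpha3T, with a mean of 124 over the 4 arrays, was not tested. With no filter, Rpn5 was the only member at a limma p under 0.05. The methods' t-test gave an unadjusted p under 0.05 for 1 member, Prosalpha7, and called 0 once adjusted over all probe sets (lowest adjusted value 0.802). Of the 33 members tested, 4 had both JH III arrays above both acetone arrays and 7 had both below, where 22.2% and 15.3% of all probe sets did so.

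The core particle had differences of small size that were mostly below 0. Of its 12 members 11 had a negative log2 difference (JH III minus acetone, on log2 of signal plus 83) in the authors' scaling, 5 after quantile normalization and 6 without JH III replicate 1. In the authors' scaling the median was -0.23 with a range from -0.72 to 0.04. The median over all probe sets tested was 0.10 and that over the 25% of probe sets with the highest mean signal, which held all 17 called probe sets, was -0.10. Of the same groups 43.9% and 58.0% of probe sets lay below 0. Core members were above control level in all 4 arrays, and their standard errors were 0.35 to 0.40, so that a shift of the size of the median was not detectable in a member alone.

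The 6 alpha subunits all had differences below 0 in the authors' scaling, with a median of -0.25. After quantile normalization only Prosalpha3 (-0.31), Prosalpha6 (0.22) and Prosalpha7 (-0.62) were followed singly among them. Of the whole core, 5 of 12 members then lay below 0, so further members than Prosalpha6 turned. Prosalpha7, a gate subunit of the alpha ring, had the lowest, with signals of 1142 and 977 in JH III females and 1820 and 1777 in acetone females. The treatments did not overlap, and the replicates of each were close together. The log2 difference was -0.72 ± 0.39 (SE, n = 2 each, 95% interval -1.49 to 0.05, limma adjusted p = 0.726). A dimmer probe set of the same gene gave -0.76 ± 0.77 (SE), with values that ran from 35.7 to 419 and overlapped between treatments. Both its JH III values were under control level. Prosalpha3 had 1262 and 2020 with JH III, against 2852 and 1825 with acetone. Its groups overlapped, since JH III replicate 2 exceeded acetone replicate 2, and its difference was -0.49 ± 0.37 (SE, limma adjusted p = 0.798). Prosalpha6 had 1983 and 2837 with JH III, against 3154 and 1882 with acetone (-0.04 ± 0.36 SE, limma adjusted p = 0.987). Here the spread within each treatment was wider than the gap between the means of 2410 and 2518. Prosalpha2 (-0.16), Prosalpha4 (-0.20) and Prosalpha5 (-0.31) lay between these, and in Prosalpha2 and Prosalpha5 the treatments did not overlap either. The probe set that Prosalpha1 and Prosalpha1R share gave 2388 and 3000 with JH III, against 2921 and 1895 with acetone (0.18 ± 0.36 SE).

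Among the 6 beta subunits 5 lay below 0, with a median of -0.23, and in none of them did the treatments separate. Prosbeta2, which carries the trypsin-like cutting site, had 2356 and 3561 with JH III, against 4664 and 2673 with acetone. The difference was -0.28 ± 0.36 (SE, 95% interval -0.99 to 0.43). Prosbeta5, which carries the chymotrypsin-like site, had 2525 and 2696 with JH III, against 3199 and 2436 with acetone. Its difference was -0.09 ± 0.35 (SE, 95% interval -0.80 to 0.61). Both intervals include 0, and both differences turned positive after quantile normalization (0.0477 and 0.20). Prosbeta7 had 1621 and 2974 with JH III, against 3368 and 2569 with acetone (-0.41 ± 0.36 SE, limma adjusted p = 0.832). Prosbeta3 was the core member above 0, with 4394 and 6486 with JH III, against 3834 and 6990 with acetone (0.04 ± 0.36 SE). In Prosbeta3 the acetone arrays were the outermost values and the JH III arrays lay between them. Prosbeta4 (-0.22) and Prosbeta6 (-0.25) were near the median of the ring. A dimmer probe set of Prosbeta6 pointed the other way, at 0.94 ± 0.68 (SE), and had 380 and 508 with JH III, against 73.6 and 392 with acetone, where acetone replicate 1 was under control level.

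Within the core, the JH III replicates differed more from each other than the treatments did. JH III replicate 1 was below JH III replicate 2 in 11 of the 12 core members, Prosalpha7 being the exception, with a median gap of -0.53 on the log2 scale. Over all probe sets tested this gap was 0.04, and over the brightest 25% it was -0.12. Of these groups 48.0% and 57.7% of probe sets were lower in JH III replicate 1 than in JH III replicate 2. Set against its own mean over the 4 arrays, every core member was below that mean in JH III replicate 1, and in 8 of the 12 that array was the lowest. Acetone replicate 1 was the highest array in 8 of the 12. The mean deviation of the core from each gene's mean was -0.38 and 0.12 in the JH III arrays, against 0.26 and 0.00 in the acetone arrays. The brightest 25% of probe sets had -0.11 and 0.01 with JH III, against 0.06 and 0.04 with acetone. From low to high, the core means ran over JH III replicate 1, acetone replicate 2, JH III replicate 2 and acetone replicate 1. The actin ratio and the summed yolk protein and muscle signals ran in this same order. The GAPDH and eIF-4a ratios, and the hybridisation controls turned round, did so but for an exchange of acetone replicate 2 and JH III replicate 2. The part of these measures in the core values was not tested. Without JH III replicate 1 the core median was -0.0034. Without JH III replicate 2 it was -0.54, without acetone replicate 2 -0.40 and without acetone replicate 1 -0.17.

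**Figure D1:**
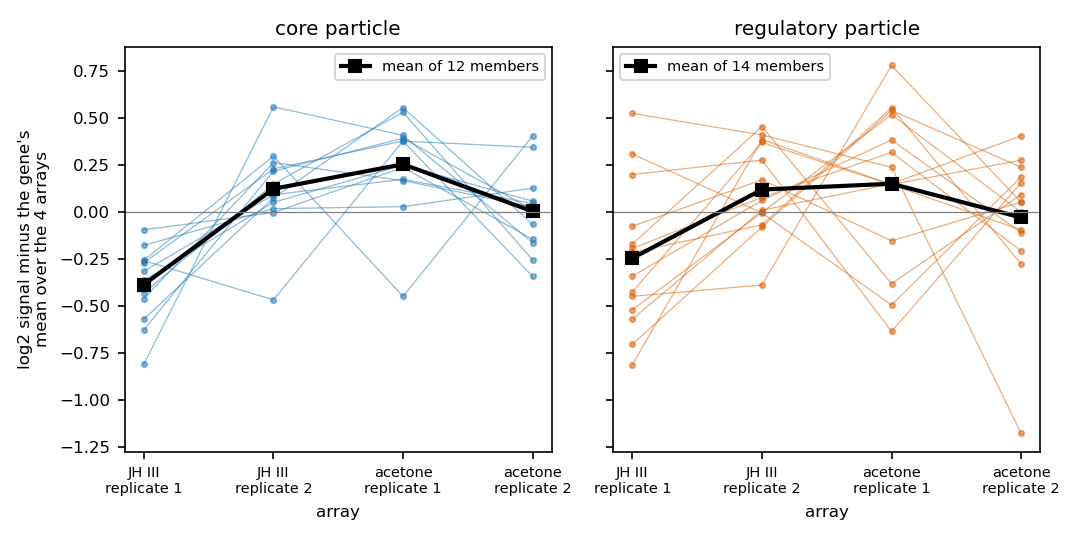
Log2 signal of each core (left) and regulatory (right) particle member minus that gene's mean over the 4 arrays (vertical axis), by array (horizontal axis). Thin lines join the values of 1 gene and black squares are the mean over members. The core mean is -0.38 in JH III replicate 1 and 0.12 in JH III replicate 2, against 0.26 and 0.00 in the acetone arrays, and the regulatory members spread more widely.

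The regulatory particle was more mixed. Of its 14 members 9 lay below 0 and 5 above it, with a median of -0.19 and a range from -0.83 to 0.94. The SD of the differences over members was 0.50, against 0.21 in the core and 0.70 over all probe sets. Both JH III arrays lay above both acetone arrays in 2 members (Rpn1 and Rpn8) and below them in 4 (Rpt2, Rpn3, Rpn5 and Rpn7), beside 22.2% and 15.3% of all probe sets. JH III replicate 1 was below JH III replicate 2 in 12 of the 14.

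The Rpt ATPases, which drive unfolding and open the gate, had 3 of 4 differences below 0 (median -0.19). Rpt2, whose tail is known to open the gate in yeast, had 642 and 673 in JH III females, against 1616 and 943 in acetone females. The JH III arrays were the lower ones and close to each other, while the acetone arrays were far apart. The log2 difference was -0.83 ± 0.44 (SE, 95% interval -1.70 to 0.03, limma adjusted p = 0.710). Rpt5 had 6430 and 5157 with JH III, against 3649 and 5899 with acetone (0.31 ± 0.35 SE, limma adjusted p = 0.872), with overlap between the treatments. Rpt3 (-0.28) and Rpt4 (-0.11) overlapped as well. Among the remaining subunits of the base, the large scaffold Rpn1 had 3082 and 3254 with JH III, against 1692 and 2985 with acetone. The JH III arrays were the higher ones, by a narrow margin over acetone replicate 2, and the difference was 0.48 ± 0.36 (SE, limma adjusted p = 0.793). Rpn2, the partner scaffold, was at -0.05, and the ubiquitin receptor Rpn13 at -0.42, where JH III replicate 1 with 601 stood below the other arrays at 1247 to 1486.

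The lid ran from -0.78 to 0.94, beside -0.83 to 0.48 in the base. Its upper end was Rpn8, with a value near background, and Rpn11 (0.29) came next. Rpn5, a scaffold subunit of the lid, had 831 and 1325 with JH III, against 2082 and 1673 with acetone. Both JH III arrays were below both acetone arrays, and the difference was -0.78 ± 0.39 (SE, 95% interval -1.56 to -0.0044, unadjusted p = 0.0488, limma adjusted p = 0.676). Rpn7 had 1469 and 2236 with JH III, against 2473 and 2967 with acetone (-0.56 ± 0.36 SE, limma adjusted p = 0.767), again without overlap. Rpn3 was at -0.52 and Rpn6 at -0.28. In Rpn3 the treatments were separated by no more than 1497 in JH III replicate 2, against 1500 in acetone replicate 2. Rpn8, the partner of Rpn11 in the lid, lay at the other end with 480 and 436 with JH III, against 378 and 90.0 with acetone (0.94 ± 0.67 SE, 95% interval -0.39 to 2.27). Acetone replicate 2 was under its control level of 295, so this difference rests on a value near background, and Rpn8 was the regulatory member that was not above control level throughout. The ubiquitin-removing Rpn11 (0.29) and Rpn12 (0.10) overlapped between treatments.

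**Figure D2:**
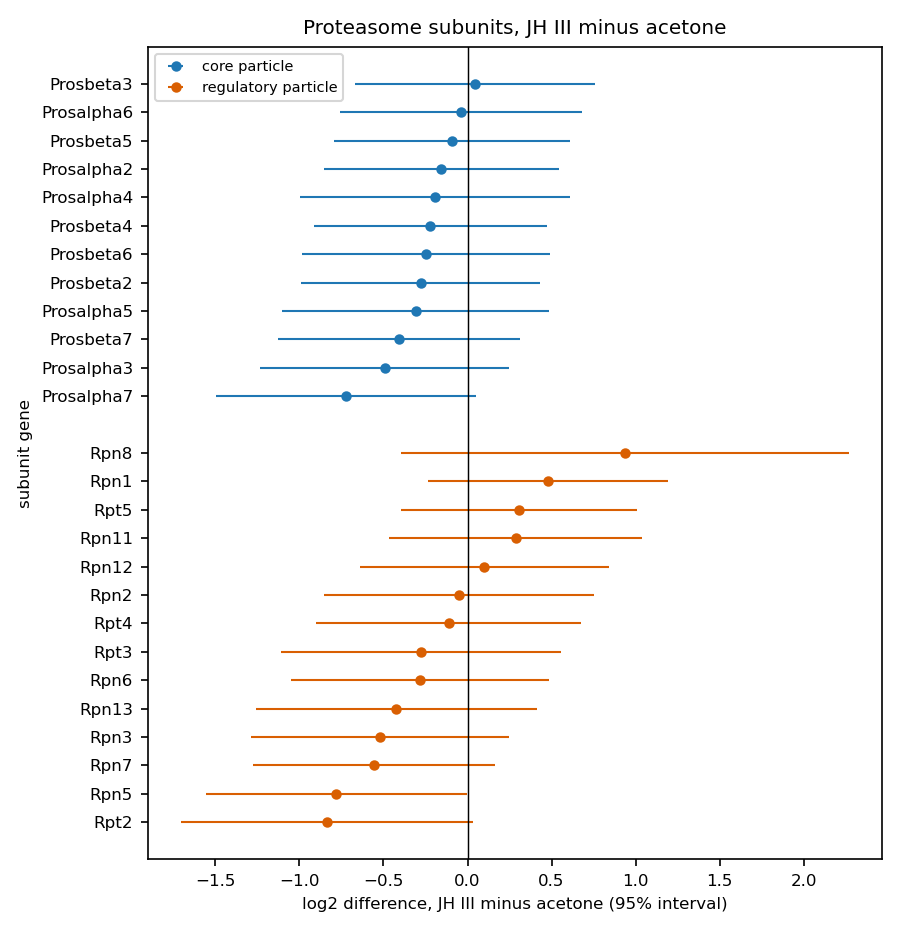
Log2 difference (horizontal axis, JH III minus acetone, n = 2 arrays each) of each core and regulatory particle subunit (vertical axis), with 95% intervals from limma. The core points lie between -0.72 and 0.04 and the regulatory points between -0.83 and 0.94, and the interval of Rpn5 alone leaves out 0, with an upper end of -0.0044.

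The offset between core and regulatory particle was lower with JH III in the authors' scaling, by -0.14 against a pooled SD between replicates of 0.0804. The mean log2 level of the core minus that of the regulatory particle was 0.69 and 0.83 in the JH III arrays, against 0.93 and 0.86 in the acetone arrays. The offset itself depends on the probes, so the treatments alone are compared. The values do not overlap, and their means were 0.76 ± 0.10 with JH III and 0.90 ± 0.05 with acetone (SD, n = 2 each). The gap between JH III replicate 2 and acetone replicate 2 was 0.03, so the separation is narrow. It also rests on Rpn8, which enters the regulatory mean. In acetone replicate 2 the Rpn8 signal of 90.0 was under the control level of 295, and lay at -1.18 from its own mean. A low Rpn8 value raises the offset of that array, so the separation of the treatments depends on a signal near background. An exact two-sided permutation test of 2 arrays against 2 cannot give a p under 0.33, and none was used. After quantile normalization the difference was 0.02.

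The variant copies were mostly at background. Of 52 values of the 13 variants 9 exceeded the control level of their array, 2 and 3 in the JH III arrays, against 2 and 2 with acetone. In 6 variants no array was above the level, in 5 variants 1 array and in 2 variants 2 arrays, and in 0 were both arrays of a treatment above it. Levels and differences of these genes are therefore those of signals near background. The acetone means of Prosbeta2R2, Prosbeta4R2, Rpn13R, Rpt3R and Prosalpha6T were under 124, the mean of the untested Prosalpha3T. That these variants were tested thus depended on their JH III signals. Of 12 male germline genes, 7 and 4 were above control level in the JH III arrays, against 6 and 4 in the acetone arrays, with summed signals of 7109 and 5289, against 5084 and 5347. Their part in the variant signals was not tested.

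Prosbeta2R2, a copy of the trypsin-like subunit, had 1049 and 175 with JH III, against 95.5 and 111 with acetone. Both JH III arrays were higher than both acetone arrays, but only JH III replicate 1 was above control level. Its log2 difference was 1.53 ± 0.75 (SE, unadjusted p = 0.0440, limma adjusted p = 0.674), and without JH III replicate 1 it was 0.47. Prosbeta4R2 had 504 and 57.3 with JH III, against 13.4 and 198 with acetone, and was also above control level in JH III replicate 1 alone. Prosbeta4R1, separated from Prosbeta4R2 by 1 protein-coding gene in the RefSeq gene table, behaved otherwise, with 48.5 and 386 with JH III, against 23.5 and 555 with acetone. It was above control level in replicate 2 of each treatment, and so was Rpt4R, with 71.2 and 402 with JH III, against 79.2 and 412 with acetone. For both the difference between treatments was under 0.1 in size (-0.07 and -0.05) while the replicates lay far apart. Rpn13R had 119 and 327 with JH III, against 129 and 51.2 with acetone, and was above control level in JH III replicate 2. Rpt3R had 330 and 215 with JH III, against 208 and 38.4 with acetone, and Prosalpha3T 24.7 and 86.2 with JH III, against 166 and 219 with acetone. Both were above control level in acetone replicate 1 alone, whose level was the lowest of the 4. Prosalpha3T was too dim to be tested. In Prosalpha4T1, Prosalpha4T2, Prosalpha6T, Prosbeta2R1, Prosbeta5R1 and Rpn12R all values lay between 17.5 and 176 and none was above control level.

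**Figure D3:**
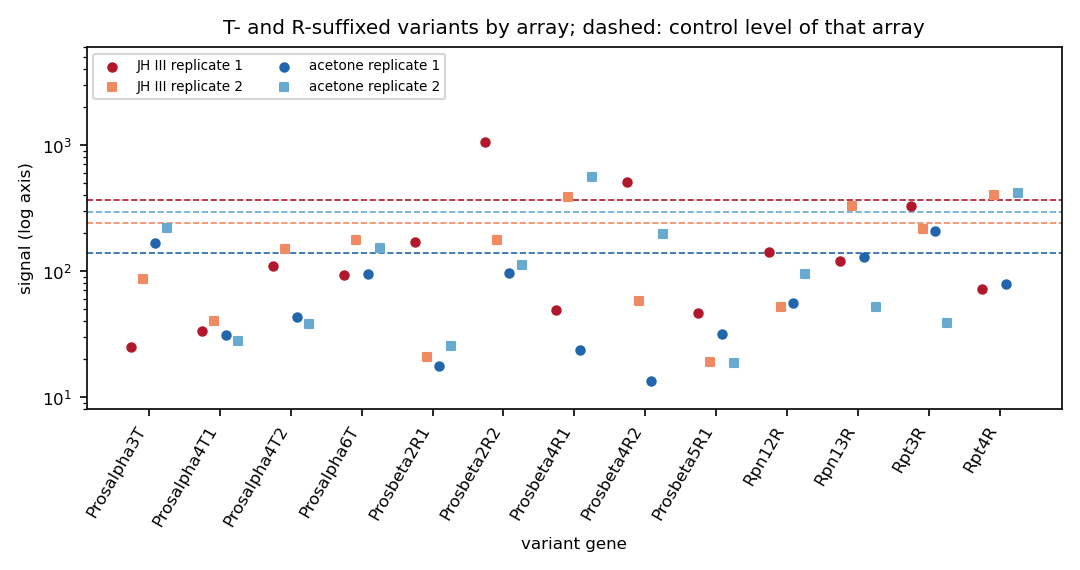
Signal (vertical axis, log scale) of the 13 variant genes (horizontal axis) in each array, JH III in reds and acetone in blues. Dashed lines in the same colours are the control levels, 369 and 240 for JH III and 139 and 295 for acetone. Of the 52 points, 9 lie above the line of their own array.

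Genes that act with the proteasome gave no call either. In 4 lists of other pathway genes limma called 0 of 44 genes tested, and 4 had an unadjusted p under 0.05. Ubiquitin genes and conjugating enzymes (9 tested of 17 listed, median 0.01) had 0 members at an unadjusted p under 0.05. The polyubiquitin gene Ubi-p63E was at 0.17 ± 0.36 (SE), and the 3 of smallest p were Ubc7 (0.76), ben (-0.40) and Ubc6 (0.60). The COP9 signalosome, which is related to the lid and removes Nedd8 from cullins, had 9 tested of 10 listed (median -0.06, 0 at an unadjusted p under 0.05). Its genes of smallest p were CSN7 (-0.88), CSN4 (-0.49 ± 0.63 SE) and CSN6 (0.54). CSN4 had 334 and 234 with JH III, both under control level, against 326 and 559 with acetone, so its treatments overlapped. Cullin ligase components had 11 tested of 15 listed (median 0.22, 0 at an unadjusted p under 0.05), with Roc2 (0.96), Cul2 (0.61) and ago (at least 1.88-fold higher) of smallest p. In CSN7 JH III replicate 1, in CSN6 replicate 2 of each treatment and in Roc2 acetone replicate 2 was under control level. These differences and that of CSN4 therefore rest on values near background. The folds marked "at least" are bounds, given where 1 treatment was under control level on both arrays and the other over it on both. For CSN4 no bound is given, since its treatments overlapped.

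The list of proteasome assembly and regulation genes held 15 tested of 18, with a median of -0.20. Before adjustment 4 had a limma p under 0.05, of which 3 were lower and 1 higher with JH III, beside the 7.29% of all probe sets given above. None of the 4 passed the adjusted test. PI31, which encodes a proteasome-binding regulator, had 224 and 121 with JH III, against 859 and 534 with acetone. Both JH III arrays were under their control level, so PI31 was at least 2.28-fold lower with JH III (limma adjusted p = 0.529). The gene poe, the fly counterpart of the ubiquitin ligase UBR4, had 1130 and 1237 with JH III, against 2657 and 2267 with acetone. Its treatments did not overlap, and the difference was -1.004 ± 0.37 (SE, limma adjusted p = 0.476). Keap1, the negative regulator of the stress factor encoded by cnc, had 997 and 409 with JH III, against 226 and 174 with acetone (1.37 ± 0.62 SE, limma adjusted p = 0.636). Acetone replicate 2 was under control level there. The ubiquitin receptor and protease rngo (Ddi1 in other animals) came next by p, at -1.43, with 71.7 and 310 with JH III, against 648 and 525 with acetone, and it was named after its values were seen. JH III replicate 1 was under control level in rngo. The gene cnc itself, whose products include the factor CncC that is known to activate proteasome genes in flies, was at 0.33 ± 0.70 (SE), with replicate 2 of each treatment under control level. The assembly chaperone Pomp was at 0.43 ± 0.38 (SE).

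In the authors' scaling, other large complexes had medians on the same side of 0. The proton pump of acidic organelles (Vha, 25 tested of 29) had a median of -0.18 with 15 of 25 below 0, and the cytosolic ribosome (RpL and RpS, 33 tested of 37) a median of -0.32 with 26 of 33 below 0. Complex I of the respiratory chain (ND-, 31 tested) had a median of -0.64 with 29 of 31 below 0. In the 3 complexes limma called 0 members, and at an unadjusted p under 0.05 there were 2, 0 and 8, all lower, beside 3.75% of all probe sets. Of the brightest 25%, 288 of 3492 probe sets were lower at that limma p. The proteasome core at -0.23 lay between the pump and the ribosome in that scaling, and no test of the difference between complexes was made. After quantile normalization the core median was 0.05, and the other complexes were not followed there. The lists are not alike, since the core and regulatory lists leave out the T and R copies. The other lists keep copies of subunits, such as VhaPPA1-2, RpL7-like and ND-20L. The order of the medians was not examined without these copies. In complex I both JH III arrays were below both acetone arrays in 21 of 31 members, against 3 of 12 in the core and 4 of 14 in the regulatory particle, beside 15.3% of all probe sets. Of the brightest 25%, 820 of 3492 probe sets did so. Every core member and every regulatory member but Rpn8 belonged to that brightest group.

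**Figure D4:**
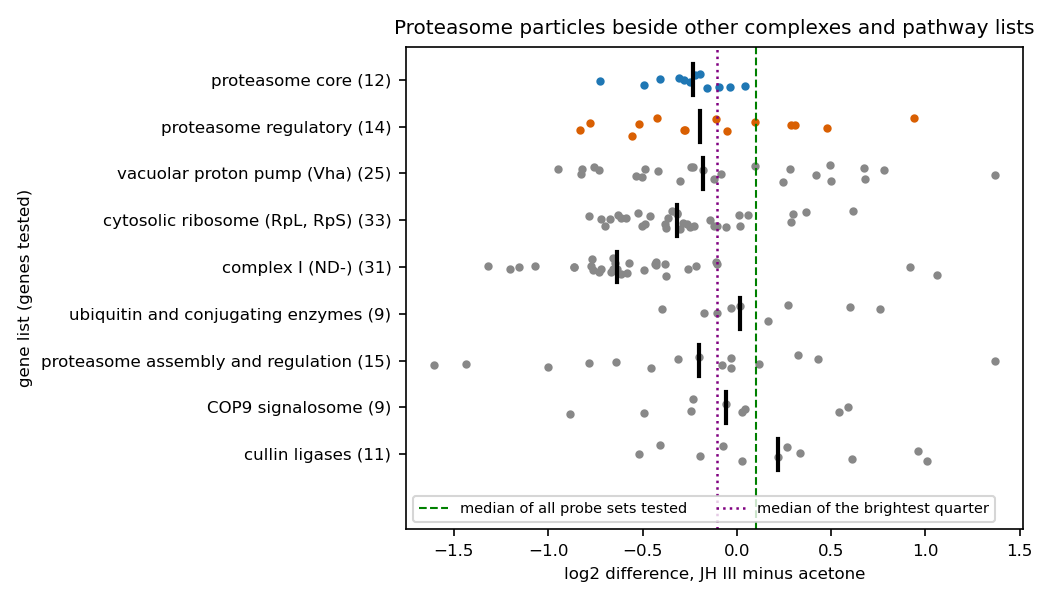
Log2 difference (horizontal axis, JH III minus acetone) of each gene tested, by list (vertical axis, number of genes tested in brackets), with the list median as a black bar. In the authors' scaling the core and regulatory medians of -0.23 and -0.19 lie left of the medians of all probe sets (0.10, dashed) and of the brightest 25% (-0.10, dotted), beside -0.18 for the proton pump, -0.32 for the ribosome and -0.64 for complex I. The lists of these last complexes keep copies of subunits, and the proteasome lists do not.

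The medians moved with the scaling and with the arrays used. After quantile normalization the core median was 0.05 and 5 of 12 members lay below 0, while the regulatory median was -0.09 with 9 of 14 below 0. With each array centred on its median, which moved the median of all probe sets to -0.14, they were -0.47 and -0.43, with 12 of 12 and 10 of 14 below 0. The regulatory median was 0.09 without JH III replicate 1, -0.40 without JH III replicate 2, -0.02 without acetone replicate 1 and -0.37 without acetone replicate 2. Acetone replicate 1 was on a chip of another lot than the other 3 arrays, so the values without it are those within a lot. Both acetone arrays were scanned before both JH III arrays, and scan order and treatment cannot be told apart.

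**Figure D5:**
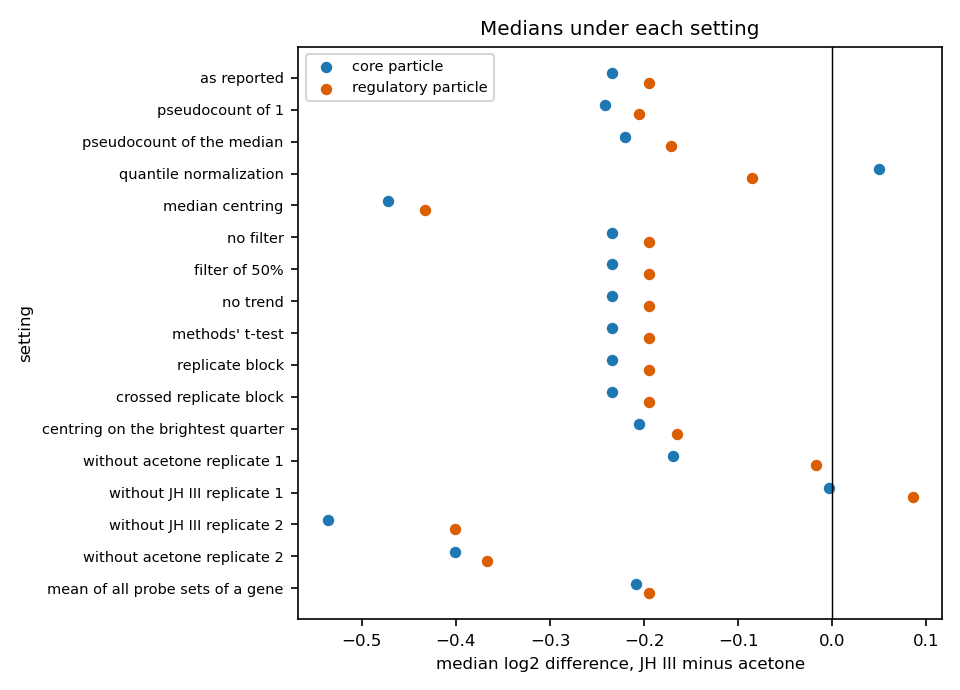
Median log2 difference (horizontal axis, JH III minus acetone) of the core and the regulatory particle under each processing setting (vertical axis). The core median runs from -0.54 without JH III replicate 2 to 0.05 after quantile normalization, and the regulatory median from -0.43 with median centring to 0.09 without JH III replicate 1.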

How the data were processed

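The deposited values are 1 linear signal intensity per probe set and array, scaled by the authors so that the 2% trimmed mean is 500.1 in each array. Of the summarising software nothing is said in the sources used here. RNA came from a Trizol and chloroform extraction, per the labels. After removal of 44 control probe sets from 14010 and of the lowest 25% by mean signal, 10474 were tested as log2(signal + 83), where 83 is the 25th percentile of all values. This scale understates differences of dim genes. limma 3.58.1 in R 4.3.3 (lmFit, then eBayes with trend, two-sided, Benjamini-Hochberg over all probe sets tested, threshold 0.05) gave 2 residual and 67.4 moderated degrees of freedom, so most of the spread is borrowed. The fit was tested on simulated data. Replicates are separate pools. Symbols came from the platform annotation; all 39 matched RefSeq (Release 6 plus ISO1 MT, names only), and 0 changed. Members and lists were chosen with earlier results of these data known. Values in every array are given for members at an unadjusted p under 0.05, the 3 highest and 3 lowest differences of each particle, catalytic subunits, and variants above control level in at least 1 array, and in part for others, and of each pathway list up to 3 genes of smallest p are named. For a bound, values under control level were raised to it. Chip lot and scan order were read from the deposited array descriptions. Alternatives were other pseudocounts (1 and the median, 256), scalings, filters and tests, the block, and each array left out. Tables were read in Python 3.11.15 (pandas 2.3.3), plots drawn with matplotlib 3.10.9.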

Additional observations from a re-analysis of the deposited data

How the results depend on the processing

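Under 16 alternatives, 2 of them (centring on the brightest 25% and crossed replicate numbers) chosen after seeing the data, limma or the methods' t-test called 0 members. The number of members at an unadjusted p under 0.05, 2 as reported, was 1 with either other pseudocount, quantile normalization, no filter, the methods' t-test, the replicate block or centring on the brightest 25%. It was 0 with a filter of 50%, without a trend and with the probe sets of a gene averaged, 3 with median centring, and 0 to 5 with 1 array left out. The 5 arose without JH III replicate 2, where 16.1% of all probe sets had such a p. With replicate numbers crossed between the treatments as a block, 4 had an unadjusted p under 0.05, beside 10.1% of all probe sets, and 0 were called. Same-numbered arrays deviated from their group means with r = -0.11 over probe sets, and the labels give the numbers no shared origin. The replicate block called 0 members, and its lowest adjusted p was 0.921. The median over all members tested, -0.11 as reported, was -0.35 with median centring and ran from -0.43 to 0.15 with 1 array left out. The core median was 0.0497 after quantile normalization and -0.54 to -0.0034 with 1 array left out. The regulatory median was -0.43 with median centring and -0.40 to 0.0857 with 1 array left out. The core minus regulatory difference was 0.0222 after quantile normalization and -0.21 to -0.06 with 1 array left out. Of 19 members followed singly, 10 kept the sign of their difference throughout. The other filters, the fit without a trend, the methods' t-test and both blocks leave a member's difference unchanged, so they could not change its sign. After quantile normalization Prosalpha6 (0.22), Prosbeta2 (0.0477) and Prosbeta5 (0.20) turned positive, with median centring Prosbeta3 turned negative (-0.19), and with a pseudocount of 1 Prosbeta4R1 turned positive (0.25). With 1 array left out the ranges crossed 0 for Prosalpha6 (-0.40 to 0.32), Prosbeta2 (-0.67 to 0.11), Prosbeta3 (-0.38 to 0.47), Prosbeta5 (-0.29 to 0.10), Prosbeta7 (-0.83 to 0.0150), Prosbeta4R1 (-1.36 to 1.22), Prosbeta4R2 (-0.23 to 1.83), Rpt4R (-0.88 to 0.78) and Rpt5 (-0.0341 to 0.65). Where a value left its reported side, the cause was not tested. Among the genes named, signals under the control level limit the variants, Rpn8, Keap1, rngo, cnc, CSN4, CSN6, CSN7 and Roc2, and the bounds given for PI31 and ago.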
